A study of Mus musculus with 13 samples.

Results

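The probes for miR-30a-5p and miR-30b-5p, members of one microRNA (miRNA) seed family encoded at different loci, were followed in exosomes from mouse plasma. They were chosen by name and are 2 of the 68 probes of the panel. Exosomes are small vesicles that cells release, here isolated from plasma drawn 24 hours after surgery. All mice were male, of the C57BL/6J strain and wild type (WT). The control group of 5 mice had a sham operation, and the disease group of 8 mice had cecal ligation and puncture (CLP), a model of sepsis in which a ligature and a puncture of the cecum let gut bacteria into the abdomen. The labels used here give no age, and each sample was taken as 1 mouse. Nothing in the labels says whether the samples were handled separately, so the p-values speak of the spread among these samples alone, which may be technical.

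A miRNA guides an Argonaute protein to messenger RNAs that pair with its seed, the short stretch near its 5′ end, and so lowers their output. Members of a seed family can pair with largely the same targets, while the genes that encode them can be expressed in different cells. The miR-30 family is abundant in kidney, heart and epithelia. It is known for repressing SNAI1, a transcription factor that drives loss of epithelial character, and miR-30a is known for repressing BECN1, which starts autophagy.

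The mouse gene table (GRCm38.p6) holds 6 Mir30 genes on 3 chromosomes, in neighbouring pairs. Mir30a lies at chr1:23272269-23272339, with Mir30c-2 in the same chromosome region at chr1:23291701-23291784. Mir30b lies at chr15:68337415-68337510, and Mir30d at chr15:68341208-68341289. Mir30e (chr4:120772606-120772697) and Mir30c-1 (chr4:120769534-120769622) form the remaining pair. The panel measured miR-30a-5p and miR-30b-5p alone of this family. The mature sequences of miR-30a-5p, miR-30c-5p and miR-30e-5p, from RefSeq on GRCm38.p6, show what these members share and where they part. That miR-30b-5p has the same seed is taken here from its family name and was not read from a sequence. The seed, bases 2 to 8 counted from the 5′ end, is in capitals.
miR-30a-5p: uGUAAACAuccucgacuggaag
miR-30c-5p: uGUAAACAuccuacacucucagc
miR-30e-5p: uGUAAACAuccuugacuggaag
The first of these is read from the plus strand at chr1:23272274-23272295. Against miR-30a-5p, miR-30e-5p differed at 1 of 22 bases, C13U. miR-30c-5p differed at 5 of the 22 bases compared, C13A, G14C, G18C, G19U and A20C. The probes carry human names and their sequences were not used here, so how far each probe also reads its relatives was not tested.

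The first question was how much signal each miRNA gave in sham and CLP mice before any scaling. Both miR-30a-5p and miR-30b-5p rose after CLP, as did most of the panel. The raw signal is fluorescence in arbitrary units, left unscaled between samples by the authors. For miR-30a-5p it was 4, 9.24, 16.8, 6.59 and 80.5 units in sham mice 1 to 5. In CLP mice 1 to 8 it was 63.5, 112.7, 107.0, 131.5, 91.4, 93.9, 65.5 and 18.6 units. Sham mouse 5 stood among the CLP mice, and CLP mouse 8 stood among the sham mice, so the groups overlapped; 5 of 8 CLP mice lay above every sham mouse. The geometric mean was 75.5 units in CLP (log2 mean 6.24 ± 0.89, SD, n = 8) and 12.7 units in sham (log2 mean 3.67 ± 1.67, SD, n = 5). The rise was 5.95-fold (log2 2.57, SE 0.59, 95% interval 1.36 to 3.78, limma adjusted p = 0.000557 over 66 miRNAs). With no background reading given, whether the 4 to 16.8 units of sham mice 1 to 4 lie above background could not be checked, and the size of the fold rests on them.

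The signal of miR-30b-5p was 148.6, 327.9, 604.5, 148.0 and 967.6 units in sham mice 1 to 5. In CLP mice 1 to 8 it was 945.2, 1169, 1137, 997.3, 1204, 1183, 948.7 and 389.6 units. The same pair of mice crossed between the groups, sham mouse 5 upward and CLP mouse 8 downward. All 8 CLP mice were spread over a 3.09-fold range and the sham mice over a 6.54-fold range. Without CLP mouse 8, the values of the other 7 CLP mice were close together. The geometric mean was 949.3 units in CLP (log2 mean 9.89 ± 0.54, SD, n = 8) and 335.0 units in sham (log2 mean 8.39 ± 1.21, SD, n = 5), a rise of 2.83-fold (log2 1.503, SE 0.48, 95% interval 0.51 to 2.49, limma adjusted p = 0.00638). Of all 66 miRNAs tested without scaling, 60 rose (90.9%) and the median change was 1.87 log2 units, so a rise here is the rule of the panel. By size, the rise of miR-30a-5p was the 8th and that of miR-30b-5p the 45th of the 66. Without sham mice 1 and 4, the pair with the lowest signal, the change was 1.70 for miR-30a-5p (limma adjusted p = 0.0250) and 0.72 for miR-30b-5p, which no longer passed (limma adjusted p = 0.154; over all its alternatives 0.000444 to 0.209).

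**Figure D1:**
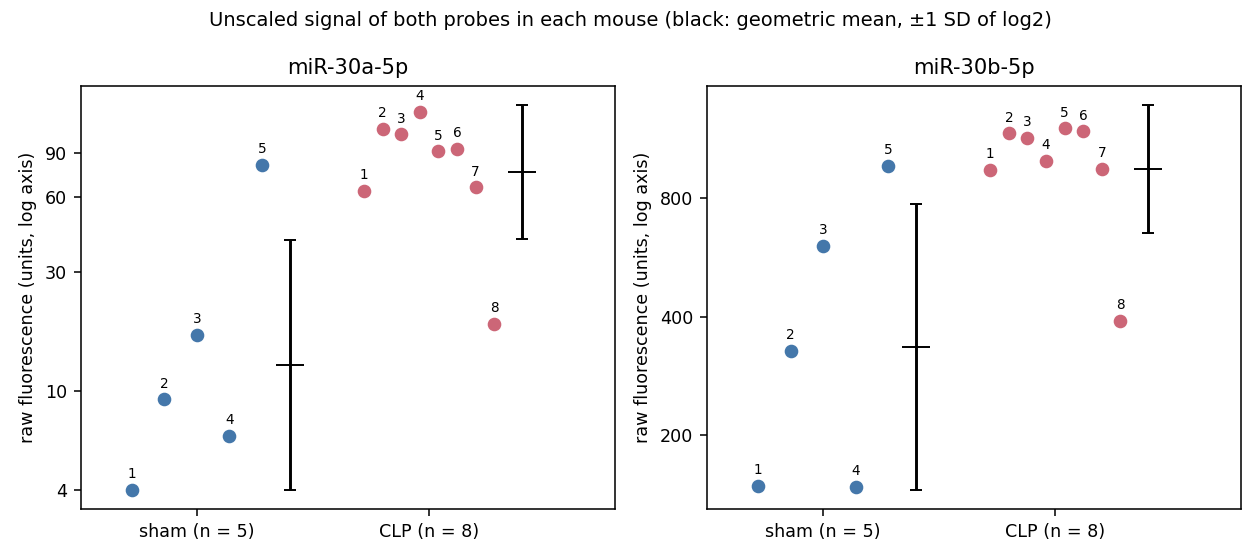
Raw fluorescence in units (vertical log axes) of miR-30a-5p on the left and miR-30b-5p on the right, 1 point per mouse labelled by its number, with the geometric mean and ±1 SD of log2 in black. Sham mouse 5 lies with the CLP mice and CLP mouse 8 lies with the sham mice in both panels, and the sham mice span 4 to 80.5 units for miR-30a-5p against 148.0 to 967.6 units for miR-30b-5p.

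The level of a mouse, taken as the geometric mean of 58 other miRNAs above 0 in every mouse, ran from 46.8 to 239.4 units in sham and from 156.0 to 490.0 units in CLP. More vesicles, more miRNA per vesicle and technical differences between samples cannot be told apart here. Erythroid miRNAs (4 of a list of 5 were on the panel, none at 0 in any mouse) made up 32.2% to 50.2% of the summed raw signal in sham mice and 21.6% to 32.6% in CLP mice. The part of these shares in the results for the miR-30 probes was not tested. No heart or skeletal muscle miRNA of a list of 7 was on the panel, and 7 of a list of 13 epithelial miRNAs were.

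The second question was whether either miRNA changed against the rest of the panel, after division of the signal of each mouse by its geometric mean. Neither passed limma, with miR-30a-5p higher and miR-30b-5p lower than in sham on average. Scaled miR-30a-5p was 24.0, 26.0, 36.5, 36.3 and 91.9 units in sham mice 1 to 5. In CLP mice it ran from 33.4 units in mouse 8 to 74.4 units in mouse 4, with a median of 62.9 units. The highest value of all 13 mice was thus that of a sham mouse, mouse 5, while 7 of 8 CLP mice lay above the sham median. The change was 0.63 log2 units (1.55-fold, SE 0.29, 95% interval 0.02 to 1.25, limma adjusted p = 0.101 over 65 miRNAs). Without sham mouse 5 it was 0.96 and passed (limma adjusted p = 0.00461), and without CLP mouse 8 it was 0.75 and passed (limma adjusted p = 0.0486); over the alternatives that kept some scaling the adjusted p ran from 0.00461 to 0.418.

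Scaled miR-30b-5p was 891.0, 923.9, 1318, 815.2 and 1104 units in sham mice 1 to 5. It ran from 564.5 units in CLP mouse 4 to 914.5 units in CLP mouse 7, with a median of 706.7 units. All 8 CLP mice lay below the sham median and 5 lay below every sham mouse. The change was -0.44 log2 units (1.35-fold lower, SE 0.17, 95% interval -0.80 to -0.07, limma adjusted p = 0.0590). The exact two-sided permutation test, adjusted over the same 65 miRNAs, passed it (adjusted p = 0.0379), as did limma with scaling to the 3 miRNAs of smallest spread (-0.52, limma adjusted p = 0.0347), without a filter on low values (limma adjusted p = 0.0353), and without sham mouse 4 (-0.54, limma adjusted p = 0.0415), against 0.0347 to 0.428 over the alternatives that kept some scaling. Of the 65 miRNAs, 20 passed limma in the scaled fit (30.8%; 13 without sham mouse 2) and 20 passed the exact permutation test (30.8%), by limma 7 as higher and 13 as lower (13 and 6 with the authors' values), with a median change of 0.10.

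The sign of each scaled change was the same under the 7 scalings tried other than none. For miR-30a-5p it lay between 0.33 with quantile normalization and 0.85 with the 75th percentile. For miR-30b-5p it lay between -0.52 with the 3 miRNAs of smallest spread and -0.22 with the 75th percentile, and it turned to 1.503 on the unscaled signal. All but quantile normalization apply 1 factor per mouse and so shift both miRNAs alike, which makes their accord in part a matter of construction. The distance of each from the median change of the panel is likewise fixed under 1 factor per mouse, apart from the floor and filter. For miR-30a-5p and miR-30b-5p it was 0.53 and -0.53 with the geometric mean, and 0.70 and -0.37 on the unscaled signal.

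**Figure D2:**
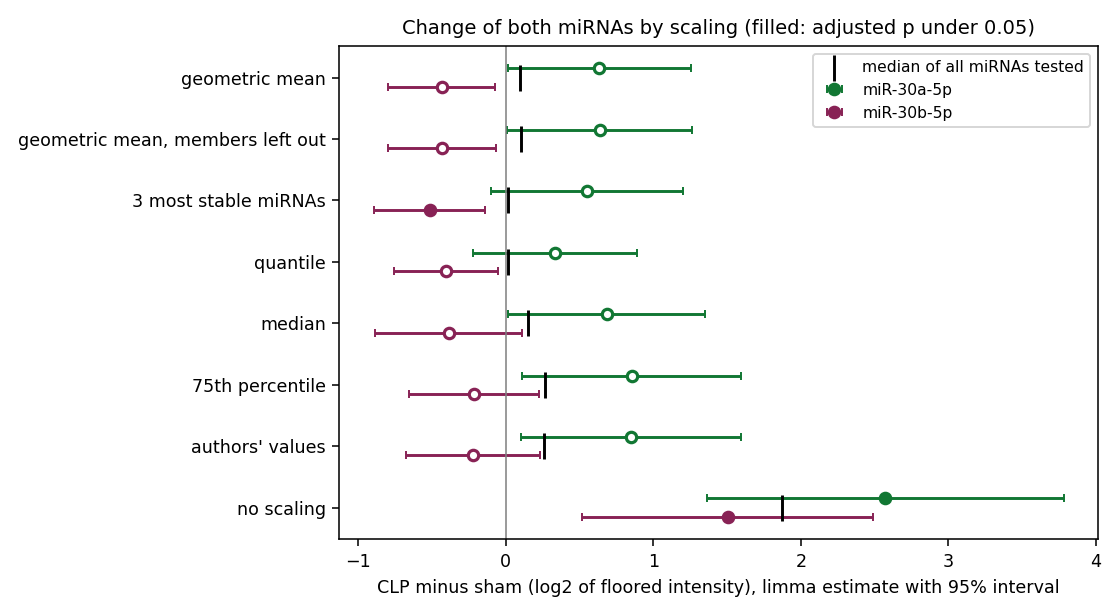
Change in log2 units, CLP minus sham (horizontal axis), of miR-30a-5p (green) and miR-30b-5p (purple) under 8 treatments of the signal, with limma's 95% intervals, filled where the adjusted p was under 0.05; black ticks mark the median of all miRNAs tested. The green points lie to the right of the tick and the purple points to its left in every row, from 0.63 and -0.44 with the geometric mean to 2.57 and 1.503 with no scaling. Apart from quantile normalization, the rows share this order largely by construction.

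The third question was whether the miR-30 probes changed unequally, asked of their ratio within each mouse, which no scaling factor affects. The ratio of the probe signals was higher after CLP. It is followed across mice only, since signals of different probes do not give relative abundance. The signal of miR-30a-5p was 2.69%, 2.82%, 2.77%, 4.45% and 8.32% of that of miR-30b-5p in sham mice 1 to 5. It was 6.72%, 9.64%, 9.41%, 13.2%, 7.59%, 7.93%, 6.90% and 4.77% in CLP mice 1 to 8. All 8 CLP mice lay above sham mice 1 to 4, and sham mouse 5 lay above 5 of the 8 CLP mice.

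In CLP mice the log2 ratio was -3.65 ± 0.43 (SD, n = 8), and in sham mice it was -4.72 ± 0.70 (SD, n = 5), which makes the ratio 2.10-fold higher after CLP (log2 difference 1.07, exact two-sided permutation p = 0.00855 over all 1287 splits of the mice, which can give no p below 0.000777). Leaving out 1 mouse at a time gave differences of 0.95 to 1.35, and the exact permutation p stayed between 0.00202 and 0.0202. Among the ratios of all 2145 pairs of tested miRNAs, 575 passed limma after Benjamini-Hochberg adjustment over the pairs (26.8%), and the ratio of miR-30a-5p to miR-30b-5p was one of them (SE 0.33, 95% interval 0.38 to 1.76, limma adjusted p = 0.0230; exact permutation p adjusted over the pairs 0.0380, by which 25.4% of pairs passed). A change at least this large was found in 24.7% of the pairs. The pairs share mice and miRNAs, so these shares describe the panel. With the level of the mouse as a covariate the difference was 0.09 (SE 0.45, 95% interval -0.87 to 1.04, limma adjusted p = 0.925, in a fit that called 7.65% of pairs), and with 10 units added to both signals, a step chosen after the data were seen, it was 0.31 (exact permutation p = 0.221). Over all alternatives the p of the ratio ran from 0.00202 (exact permutation, unadjusted, without sham mouse 5) to 0.925 (limma, adjusted over the pairs). These ends are p-values of different kinds.

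**Figure D3:**
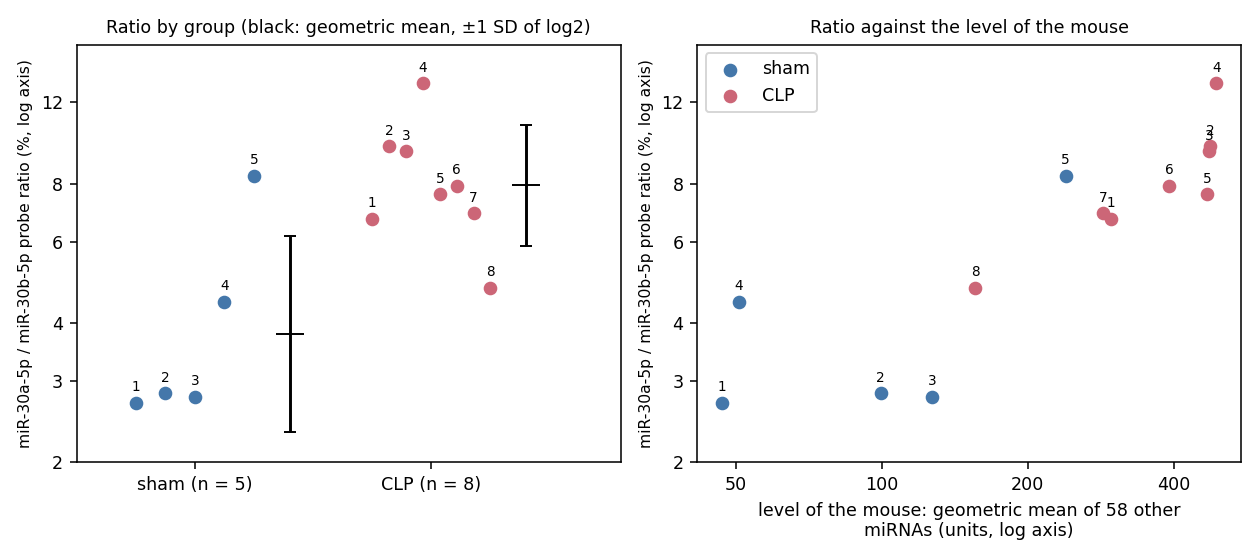
Ratio of the miR-30a-5p to the miR-30b-5p probe signal in percent (vertical log axes), by group on the left with geometric mean and ±1 SD of log2 in black, and on the right against the level of the mouse in units (horizontal log axis), 1 numbered point per mouse. CLP mouse 8, at a level of 156.0 units, has the lowest ratio of its group (4.77%), and sham mouse 5, at 239.4 units, has the highest of its own (8.32%).

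Within the CLP group the ratio was higher in mice of higher level. Over the 8 CLP mice the log2 ratio and the log2 level had a Pearson r of 0.877 (exact permutation p = 0.00184, Benjamini-Hochberg adjusted 0.00551 over 3 relations) and a Spearman rho of 0.952 (exact permutation p = 0.00114, adjusted 0.00342). Without CLP mice 7 and 8, the farthest from the median level, r was 0.718. The slope of the log2 ratio on the log2 level was 0.66 (SE 0.15) in CLP and 0.42 (SE 0.34) in sham, where no correlation was computed with 5 mice. Sham mouse 5 had both the highest level and the highest ratio of its group. Sham mouse 4, with a ratio of 4.45% at a level of 50.7 units, lay above sham mouse 3, with 2.77% at 126.9 units.

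The miR-30 probes followed the level with different slopes. Within groups, miR-30a-5p rose by 1.59 log2 units per log2 unit of level (SE 0.14), the 4th steepest of 66 miRNAs, and miR-30b-5p by 1.08 (SE 0.11), the 23rd. The other 64 had a median slope of 0.95 and ran from 0.29 to 1.82. The slope of miR-30a-5p was 1.51 (SE 0.14) in CLP and 1.64 (SE 0.28) in sham, and that of miR-30b-5p was 0.85 (SE 0.16) in CLP and 1.22 (SE 0.11) in sham. For the log2 ratio the slope within groups was 0.51 (SE 0.17). With the level as a covariate neither miRNA passed on the unscaled signal, and both changes turned negative, to -0.51 for miR-30a-5p (SE 0.34, limma adjusted p = 0.426) and -0.59 for miR-30b-5p (SE 0.28, limma adjusted p = 0.209). Level and group were not balanced in these mice, since 7 of 8 CLP mice had a higher level than any sham mouse.

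**Figure D4:**
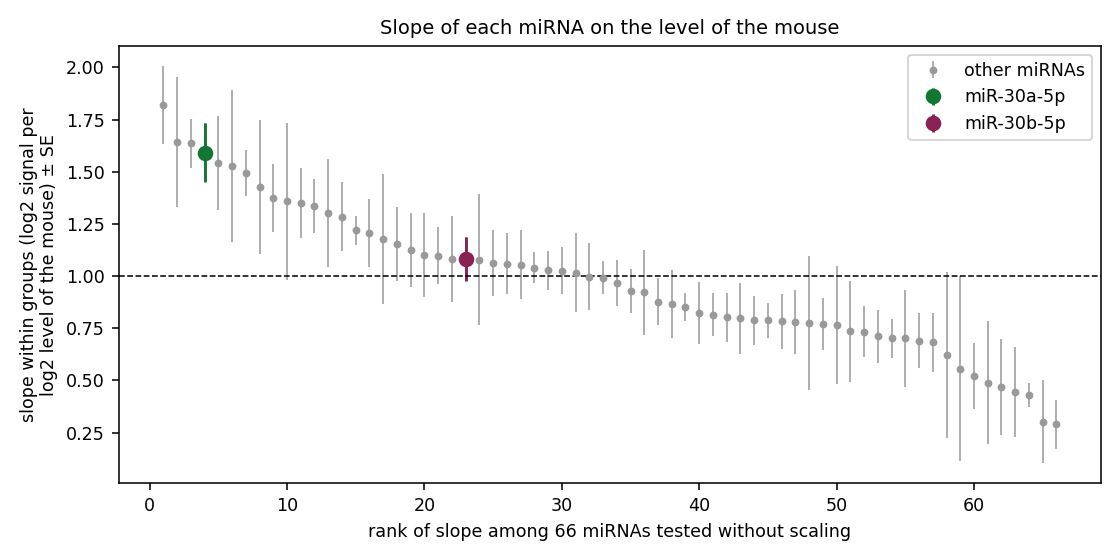
Slope of each of 66 miRNAs on the level of the mouse within groups (vertical axis, log2 signal per log2 level, ± SE), in order of rank (horizontal axis), with a dashed line at a slope of 1. miR-30a-5p (green) is 4th at 1.59 and miR-30b-5p (purple) is 23rd at 1.08.

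In CLP mice the raw log2 signals of miR-30a-5p and miR-30b-5p had a Pearson r of 0.936 (exact permutation p = 0.0153, adjusted 0.0229) but a Spearman rho of 0.548 (exact permutation p = 0.171, adjusted 0.256). The Pearson r fell to 0.578 without CLP mice 5 and 8, which were left out together and not singly. Of these, CLP mouse 8 had the lowest raw signal of its group for both miRNAs. After scaling r was -0.05 (exact permutation p = 0.903) and rho was -0.26 (exact permutation p = 0.536, adjusted 0.536). Both raw signals carry the level of the mouse.

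Set against every other miRNA by ratio, miR-30a-5p rose more on average than 58 of 65 and miR-30b-5p rose less than 44 of 65. These counts restate their ranks by size of the unscaled rise. By limma over all pairs, 21 ratios of miR-30a-5p passed (32.3%), 19 of them higher after CLP. For miR-30b-5p 14 passed (21.5%), every one of them lower. Both shares lie near the 26.8% of all pairs.

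The miRNAs most like each of them were different. Likeness was the SD of the within-mouse log2 ratio over all 13 mice, where a small SD means that a pair kept its ratio. For miR-30a-5p the smallest SDs were those of miR-22-3p (0.48), abundant in many tissues, miR-34a-5p (0.50), a p53 target, and miR-146a-5p (0.52), which NF-κB induces and which damps inflammatory signalling. For miR-30b-5p they were miR-24-3p (0.27), miR-23a-3p (0.31) and miR-29a-3p (0.34), the last known for repressing collagens. miR-30b-5p came 20th of 65 in likeness to miR-30a-5p, and miR-30a-5p came 45th of 65 in likeness to miR-30b-5p. The SD between them was 0.75, which holds the difference between the groups as well as the spread within them. In CLP mice alone the SD to miR-30a-5p was 0.43 for miR-30b-5p, 0.47 for miR-22-3p, 0.29 for miR-34a-5p and 0.53 for miR-146a-5p. In sham mice alone it was 0.70, 0.56, 0.76 and 0.52 in the same order. For miR-30b-5p, all those named kept a smaller SD than miR-30a-5p in each group.

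The same ratio was taken for other pairs of panel miRNAs that share bases 2 to 8. Mouse mature sequences were matched by name for 50 of the 66 tested miRNAs, which gave 23 pairs in the let-7, miR-15/16, miR-17, miR-29 and miR-181 families. Of these 23, 5 passed limma adjusted over all pairs, where 26.8% of all 2145 pairs passed, so the count does not set same-seed pairs apart from the panel. They were miR-15b-5p to miR-16-5p (1.597, limma adjusted p = 0.000887), miR-15a-5p to miR-16-5p (1.34), let-7e-5p to let-7g-5p (1.19), miR-181a-5p to miR-181b-5p (0.87) and let-7d-5p to let-7g-5p (0.85), each higher after CLP as written. The ratio of miR-30a-5p to miR-30b-5p, at 1.07, came 4th of 24. The pairs among miR-17-5p, miR-20a-5p, miR-20b-5p and miR-93-5p, and those among miR-29a-3p, miR-29b-3p and miR-29c-3p, changed by at most 0.28, with wide intervals for those of miR-20b-5p (-0.69 to 1.09 against miR-20a-5p). miR-15b-5p to miR-15a-5p was at 0.25. The other 8 pairs among let-7b-5p, let-7d-5p, let-7e-5p, let-7g-5p and let-7i-5p ran from 0.08 to 0.72. With the level as a covariate, let-7e-5p to let-7g-5p still passed (1.84, limma adjusted p = 0.0234), in a fit that called 7.65% of all pairs. The other 4 of these pairs lost their call, as did that of the miR-30 probes, at limma adjusted p = 0.179 for miR-15b-5p to miR-16-5p, 0.342 for miR-15a-5p to miR-16-5p, 0.218 for miR-181a-5p to miR-181b-5p and 0.0895 for let-7d-5p to let-7g-5p.

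**Figure D5:**
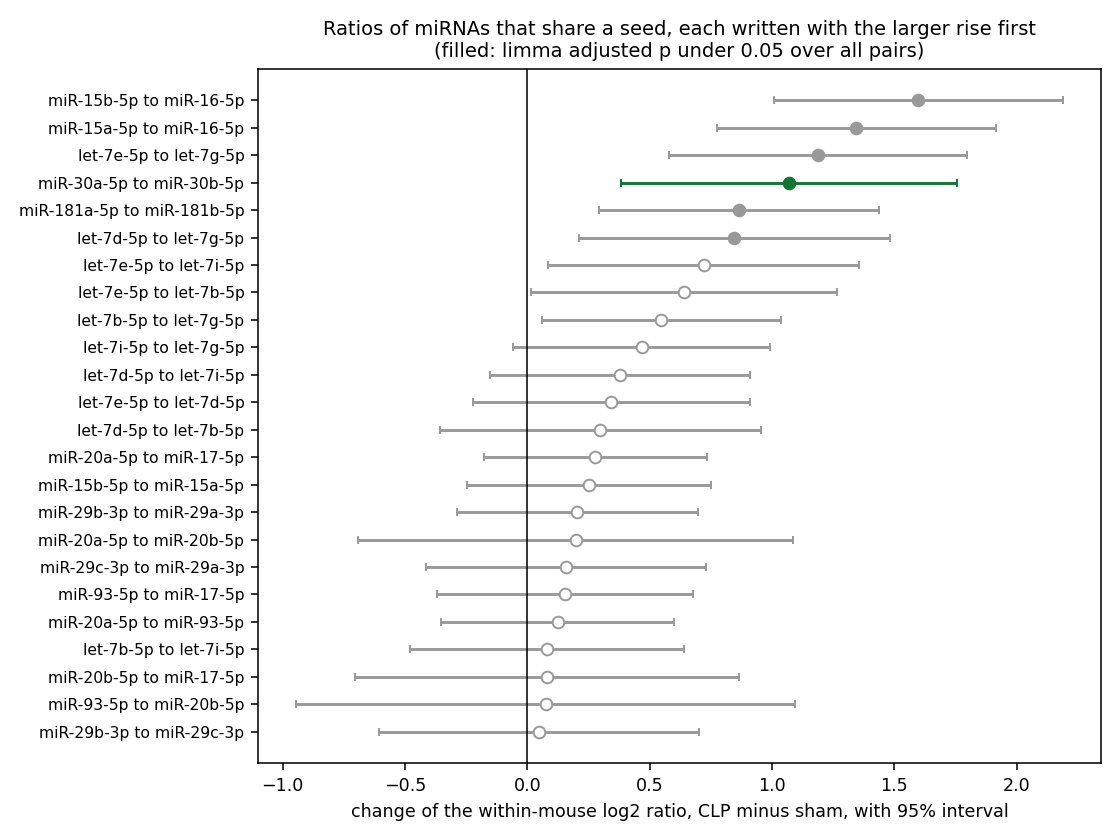
Change of the within-mouse log2 ratio, CLP minus sham (horizontal axis), with 95% intervals, for 24 pairs of miRNAs of shared seed (by family name for miR-30, by sequence for the others), each written so that the change is positive and filled where limma's adjusted p over all pairs was under 0.05. The ratio of miR-30a-5p to miR-30b-5p (green, 1.07) is the 4th from the top, below a pair with miR-15b-5p at 1.597.

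Among miRNAs of tissues where the miR-30 family is abundant, 2 of 7 epithelial miRNAs tested rose after scaling and 1 fell, with a median of 0.21 against 0.10 for all 65 miRNAs, of which 20 passed (30.8%), 7 as higher and 13 as lower. The risers were miR-10a-5p, encoded in a Hox cluster (1.98, SE 0.22, limma adjusted p = 1.26e-05), and miR-200a-3p, which represses the ZEB factors (2.16, SE 0.53, limma adjusted p = 0.00936). Both were higher under the 7 scalings compared, none included, which apart from quantile normalization agree in part by construction. The unscaled difference with the level as a covariate was 1.38 for miR-10a-5p but only 0.28 for miR-200a-3p. The slope of miR-200a-3p on the level, 1.82, was the steepest of all miRNAs tested. The one that fell was miR-205-5p of stratified epithelium (-1.61), which was at 0.33 without scaling and did not pass with the authors' values (limma adjusted p = 0.0550) or the 75th percentile (0.0573 by limma). Of the erythroid list 3 of 4 fell, miR-16-5p (-1.24), miR-486-5p (-0.76) and miR-451a (-1.504), each positive without scaling (0.70, 1.17 and 0.44) and the first also with quantile normalization (0.14), where none of the 3 passed limma. With median scaling miR-486-5p did not pass either. Their slopes on the level were 0.43, 0.79 and 0.29 in the same order. With the level as a covariate, their unscaled differences were -0.14, -0.36 and -0.13. Of the platelet list 1 of 4 rose, miR-126-3p (0.80), and 2 fell, miR-24-3p (-0.48) and miR-21-5p (-0.75), which were at 1.46 and 1.19 without scaling. Neither of these falls passed limma with the 75th percentile (adjusted p = 0.345 and 0.0811), the authors' values (0.334 and 0.0733) or quantile normalization (0.0921 and 0.102), nor did that of miR-24-3p with median scaling (0.169), and miR-126-3p did not pass with quantile normalization (0.0720). Of the endothelial list miR-126-3p rose and miR-221-3p was at -0.16, with 0.05 under the authors' values and 1.77 unscaled. Neither miRNA of the hepatocyte list passed limma after scaling, with miR-122-5p at 0.98 and miR-885-5p at -0.24. Unscaled they were at 2.70 and 1.70, and both passed as higher (limma adjusted p = 0.00089 and 0.0042), as did 60 of 66 miRNAs.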

How the data were processed

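Per the labels' protocols, miRNAs of plasma exosomes were captured on FirePlex particles, given adapters at both ends and copied by RT-PCR with a biotin label. Intensity in the deposited raw table is linear and unscaled between samples. Any background subtraction is not stated. The authors' second table, also of intensity, equals the raw intensity times 1 factor per sample (0.450 to 4.31), with the columns of CLP 6 and CLP 7 exchanged; single-mouse values follow the raw table. The number of mice limits the precision.

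Signals were floored at the 5th percentile of positive values (2.10 units unscaled, 3.09 scaled), and miRNAs above it in at least 5 samples were tested on the log2 scale with limma 3.58.1 in R 4.3.3 (two-sided, Benjamini-Hochberg over all miRNAs, adjusted p under 0.05). For scaling, signals were divided by their geometric mean within a sample, over 60 miRNAs above 0 in all samples. Ratios used raw values and exact permutation in Python 3.11.15 with numpy 2.4.6; all pairs used floored values and limma. Correlations used exact permutation. The fit was run on simulated panels with independent noise for each miRNA. These held no level shared within a mouse, so they do not test the fit under that condition.

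The miRNAs and lists were chosen with earlier results of these data known. Named were both miR-30 members, the 3 miRNAs most like each, miRNAs of same-seed pairs and up to 2 per list by smallest p; miR-486-5p, miR-205-5p and, in the platelet list, miR-24-3p lie outside this rule, chosen after their values were seen. Alternatives were other scalings, floors, filters and tests, a replicate block, the level as a covariate, and mice left out.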

Additional observations from a re-analysis of the deposited data

Results flagged for a closer look

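CLP mouse 8 stood apart from the other 7 CLP mice in 3 of the 10 sets of values examined (5 measures in each of 2 groups), where chance sets apart about 1 in 20. The sets are not independent, since both raw signals carry the level of the mouse and the scaled signal derives from the raw one. Their number thus cannot be weighed against that rate. Its raw log2 signal was 4.21 for miR-30a-5p and 8.61 for miR-30b-5p, each far below the next lowest CLP mouse. Its scaled log2 signal of miR-30a-5p was 5.06, also the lowest of its group by a wide gap. Its level, 156.0 units, was the lowest among CLP mice.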

How the results depend on the processing

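The ratio of miR-30a-5p to miR-30b-5p kept its direction under all alternatives run. It stayed past the threshold in 18 of them, by unadjusted exact permutation p or, for limma, by p adjusted over the pairs. Another 3 ended the call: the level as a covariate (0.085), 10 units added to both signals (0.31, added after the data were seen), and the replicate block that pairs replicates 1 to 5 (1.26, exact sign-flip p = 0.125, in a design of 5 pairs that cannot pass). The labels do not say that equal numbers pair mice, and the deviations of same-numbered mice correlated between -0.34 and 0.30. With the replicate block the unscaled changes were 2.95 and 1.70 and the scaled ones 0.74 and -0.52 for miR-30a-5p and miR-30b-5p, with no change of call. With the level as a covariate the unscaled changes turned to -0.51 and -0.59. Without sham mice 1 and 4 (added after the data were seen), unscaled miR-30b-5p was at 0.72 and no longer passed, and scaled miR-30b-5p was at -0.63 and passed. The scaled change of miR-30b-5p also passed with no filter (-0.44), by the exact permutation test (-0.44) and with the 3 miRNAs of smallest spread, miR-29a-3p, miR-29b-3p and miR-320a (-0.52). Without scaling miR-30a-5p (2.57) and miR-30b-5p (1.503) passed as higher.

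Leaving out 1 mouse at a time gave 0.95 to 1.35 for the ratio, 2.16 to 3.24 and 1.21 to 1.89 for unscaled miR-30a-5p and miR-30b-5p, and 0.47 to 0.96 and -0.54 to -0.33 for the scaled ones. The number of miRNAs called after scaling, 20, was 13 to 22 (13 without sham mouse 2), 12 with quantile normalization, 10 with median scaling, 6 with the replicate block and 60 without scaling. Of the 20, 7 were higher and 13 lower; the same split was 13 and 6 with the authors' values and the 75th percentile, and 6 and 16 with the 3 miRNAs of smallest spread. Unscaled it was 56 to 63 against 60, and the pairs called were 418 to 668 against 575. Raw miR-30a-5p in sham mice 1 to 4 (4 to 16.8 units) lay near the floor of 2.10 units, so its ratio there is the least certain.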
